A study of Mus musculus with 3 samples.

Results

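The genes described here encode ligands and receptors of axon guidance in the mouse. They comprise 20 semaphorins, 7 ephrins, 14 Eph receptors, 3 Slits, 4 Robo receptors, 2 netrins and 5 netrin receptors, 55 genes of the 22350 protein-coding genes annotated on the autosomes and the X chromosome. Genes were listed by family name, with earlier results of these data known, and no threshold on the ChIP-Seq data entered the list. The families are not complete, since Efnb1, for example, is not among the genes. For each gene, every enriched region within 2 kb of any annotated transcript start was counted, and a gene was said to be called in a library when at least 1 base of its windows lay in a region.

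The study mapped histone variant H2A.Z in mouse embryonic stem cells (ESCs) and asked where a mutant of its acidic patch is found relative to wild-type H2A.Z and to trimethylated lysine 27 of histone H3 (H3K27me3). There were 3 ChIP-Seq libraries, each the single library of its group, labelled as ESCs of strain V6.5 (129SvJaexC57BL/6). Both H2A.Z libraries were made with Anti-GFP (Abcam:Ab290), and their genotype labels are H2AZ_WT (here H2A.Z-WT) and H2AZ-AP3 (here H2A.Z-AP3). The H3K27me3 library carries the genotype label WT and the antibody label H3K27me3 (Millipore).

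According to the treatment text, the H2A.Z lines were made by lentiviral infection of KH2 ESCs, not V6.5. In both lines a CMV promoter under a doxycycline-inducible system drove the transgene, with YFP fused C-terminally, so that the anti-GFP antibody pulled down only the tagged protein. The H2A.Z-AP3 protein carries the residues of H2A at 3 positions of the acidic patch. Doxycycline was given at 1 µg/ml, cells positive for YFP were sorted, and endogenous H2A.Z was depleted in both lines by a hairpin against the 3′ UTR. The last passage was plated without feeder fibroblasts. How many clones each line represents is not given in the sources used here, and for the H3K27me3 antibody the methods name another supplier than the label does.

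The lists give the start and end of each region and no height, fold or read count, so the depth of sequencing is unknown. With 1 library per group, no difference between libraries can be set against a spread between replicates, and intervals below are 95% Wilson intervals that cover counting over genes only. The list for H2A.Z-WT held 78359 regions with a median length of 250 bp, that for H2A.Z-AP3 14599 (175 bp) and that for H3K27me3 16970 (250 bp). H2A.Z-AP3 regions were unevenly spread, since 46.8% of the genes on chromosomes 6 and 8 but 20.5% of the genes elsewhere were called in that library. H2A.Z-WT was also called more often on those chromosomes (72.3% against 60.5%), and H3K27me3 about equally (18.6% against 18.1%). H3K27me3 was called at 1 of 7 genes active in ESCs (Esrrb) and at 0 of 5 housekeeping genes (0 to 43.5%), against 18.2% of all genes, counts too small to check the cell type.

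Growing axons are steered by secreted and membrane-bound cues. Semaphorins act mostly through plexins and neuropilins, ephrins through Eph receptor tyrosine kinases, Slits through Robo receptors as repellents of the midline, and netrins through Dcc for attraction and the Unc5 receptors for repulsion. Most of these genes are used in neural development and in blood vessels, and many developmental genes of ESCs carry H3K27me3, the mark made by Polycomb repressive complex 2, at CpG-rich promoters that also hold H2A.Z.

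The sequences below show the 30 bases just before the most upstream start of 6 genes, read 5′ to 3′ on the gene's strand from the mm9 genome, with CpG dinucleotides in capitals. The first 3 genes had the most bases in H2A.Z-AP3 regions, and the last 3 had no base in an H2A.Z-WT region. Unc5a lies at chr13:55050742-55050771 (plus strand), Efna1 at chr3:89085065-89085094 (minus strand), Ephb6 at chr6:41555451-41555480 (plus strand), Epha2 at chr4:140857125-140857154 (plus strand), Sema3c at chr5:17080069-17080098 (plus strand) and Efnb3 at chr11:69373708-69373737 (minus strand).
Unc5a: gCGgCGccCGcCGgccCGctcccCGgctgc
Efna1: ccctgcaggctcagcacCGagctggccaCG
Ephb6: tgaaggggctggagaggggCGggccaggct
Epha2: tgaacaggagCGggttctcacccaacttcc
Sema3c: aaagggggttacCGtaCGttactctcccct
Efnb3: ctttaactcccccctcctgggctCGggact
The Unc5a stretch holds 6 CpGs, while the other 5 stretches hold 1 or 2. The H2A.Z-AP3 of Unc5a lay at a later promoter, not at the start shown. Over 500 bp each side of the start, the 55 genes had a median of 60 CpGs against 41 over all protein-coding genes. The ratio of observed to expected CpGs had a median of 0.678 against 0.549. It was at least 0.6 at 39 of the 55 genes (70.9%) and at 45.6% of all genes.

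H2A.Z-WT was found at nearly every axon guidance gene and H3K27me3 at most of them, whereas H2A.Z-AP3 was found at fewer. H2A.Z-WT was called at 52 of 55 genes, or 94.5% (85.2 to 98.1), where 61.7% of all protein-coding genes were called. H3K27me3 was called at 42 genes, or 76.4% (63.7 to 85.6), against a background of 18.2%. H2A.Z-AP3 was called at 20 genes, or 36.4% (24.9 to 49.6), against 23.2%. H3K27me3 thus stood farthest above its background, by 58.2 percentage points, and the interval for H2A.Z-AP3 began just above its own.

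The genes differed from the average gene in window and length. Their median window was 8002 bp against 4053 bp, since they had a median of 3 starts against 2, and they were longer, with a median of 69.0 kb against 15.4 kb. With the most upstream start of each gene alone, H3K27me3 was called at 41 of 55 genes against 16.9% of all genes, H2A.Z-WT at 50 against 58.8% and H2A.Z-AP3 at 18 against 20.8%. Among the 39 CpG-rich genes, those with a ratio of at least 0.6, H3K27me3 was called at 31 (79.5%) against 24.2%, H2A.Z-WT at 37 (94.9%) against 81.6% and H2A.Z-AP3 at 15 (38.5%) against 32.2%. The excess of H3K27me3 was thus of like size with either restriction. At CpG-rich promoters the excess of H2A.Z-WT narrowed from 32.9 to 13.3 percentage points and that of H2A.Z-AP3 from 13.2 to 6.3 points. There the interval for H2A.Z-AP3, 24.9 to 54.1%, included its background.

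**Figure D1:**
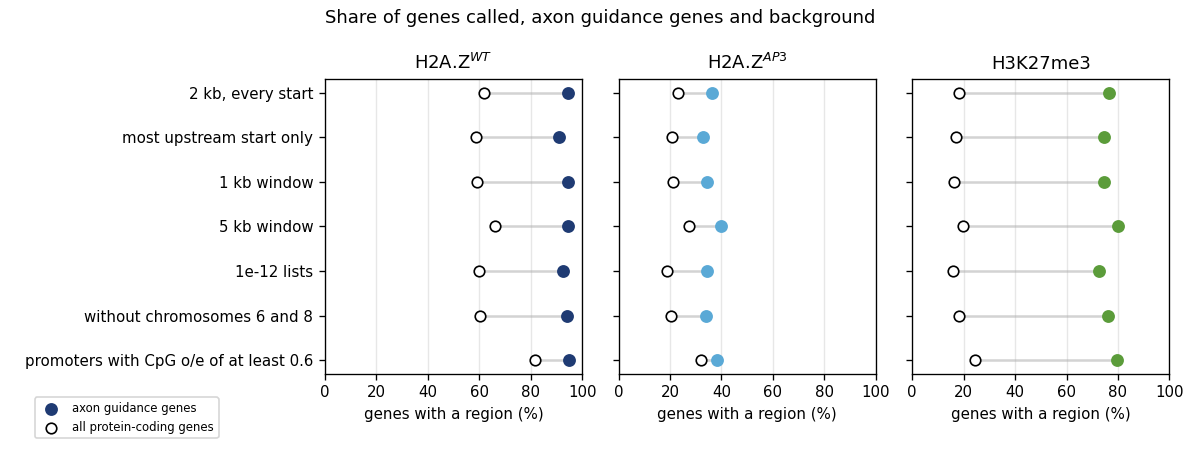
Percent of genes with a region in each library (x axis) under 7 definitions of the promoter or gene set (y axis), for the axon guidance genes (filled) and all protein-coding genes (open). The filled points lie right of the open points throughout, with the widest gap for H3K27me3 (76.4% against 18.2% in the top row).

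Each of the 20 genes with H2A.Z-AP3 had H2A.Z-WT as well (background for both, 21.9%), and no gene had H2A.Z-AP3 without H2A.Z-WT (background 1.28%). Among the 52 genes with H2A.Z-WT the share with H2A.Z-AP3 was 38.5% (26.5 to 52.0), close to the background of 35.5%, whereas the share with H3K27me3 was 40 of 52 against 28.0%. H2A.Z-WT and H3K27me3 were both called at 40 genes (72.7%), where the background was 17.3%. Of these, 15 also had H2A.Z-AP3, which makes 27.3% (17.3 to 40.2) of the 55 genes against 7.90%, and 25 did not, 45.5% against 9.39%. H2A.Z-WT was the only library called at 7 genes (Sema3a, Sema3b, Sema4b, Sema4d, Efna4, Ephb3 and Ephb4), 12.7% against 30.4%. H2A.Z-WT and H2A.Z-AP3 without H3K27me3 were called at 5 genes (Sema3e, Sema3g, Sema4g, Epha1 and Robo4), 9.09% against 14.0%. Sema3c and Efnb3 had H3K27me3 without H2A.Z-WT (background 0.877%), and only Epha2 had no region in any list (background 36.3%).

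Genes with and without H3K27me3 had overlapping shares with H2A.Z-AP3. Of genes called in the H2A.Z-WT library, 15 of 40 with H3K27me3 (37.5%, 24.2 to 53.0) and 5 of 12 without it (41.7%, 19.3 to 68.05) had H2A.Z-AP3. The difference of -4.17 percentage points had a 95% Newcombe interval of -33.7 to 23.0, too wide to place the genes relative to the background, where the shares were 45.7% with H3K27me3 and 31.5% without. The genes were also divided by the extent of H2A.Z-WT. Of the 32 genes with more than 925 bp of H2A.Z-WT, where the highest of 3 equal classes of all called genes begins, 16 had H2A.Z-AP3 (50.0%, 33.6 to 66.4, against 52.6% of all such genes). It was called at 2 of 9 genes in the middle class (22.2%, 6.32 to 54.7, against 34.2%) and at 2 of 11 in the lowest, with at most 450 bp (18.2%, 5.14 to 47.7, against 20.7%). The intervals of the classes overlapped.

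The length covered is the only graded value in the lists. Among genes called, H2A.Z-WT covered a median of 1050 bp (650 bp over all called genes), H3K27me3 1481 bp (1000 bp) and H2A.Z-AP3 337.5 bp (200 bp). As a share of the window, the medians were 13.7% for H2A.Z-WT and 17.5% for H3K27me3, against 10.3% and 14.3% over all genes. Summed over the 55 genes, H2A.Z-AP3 covered 7455 bp and H2A.Z-WT 72462 bp, so that the former came to 10.3% of the latter, against 14.3% over all genes. Without chromosomes 6 and 8, the same shares were 9.21% and 10.7%, which brought the genes close to the background.

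**Figure D2:**
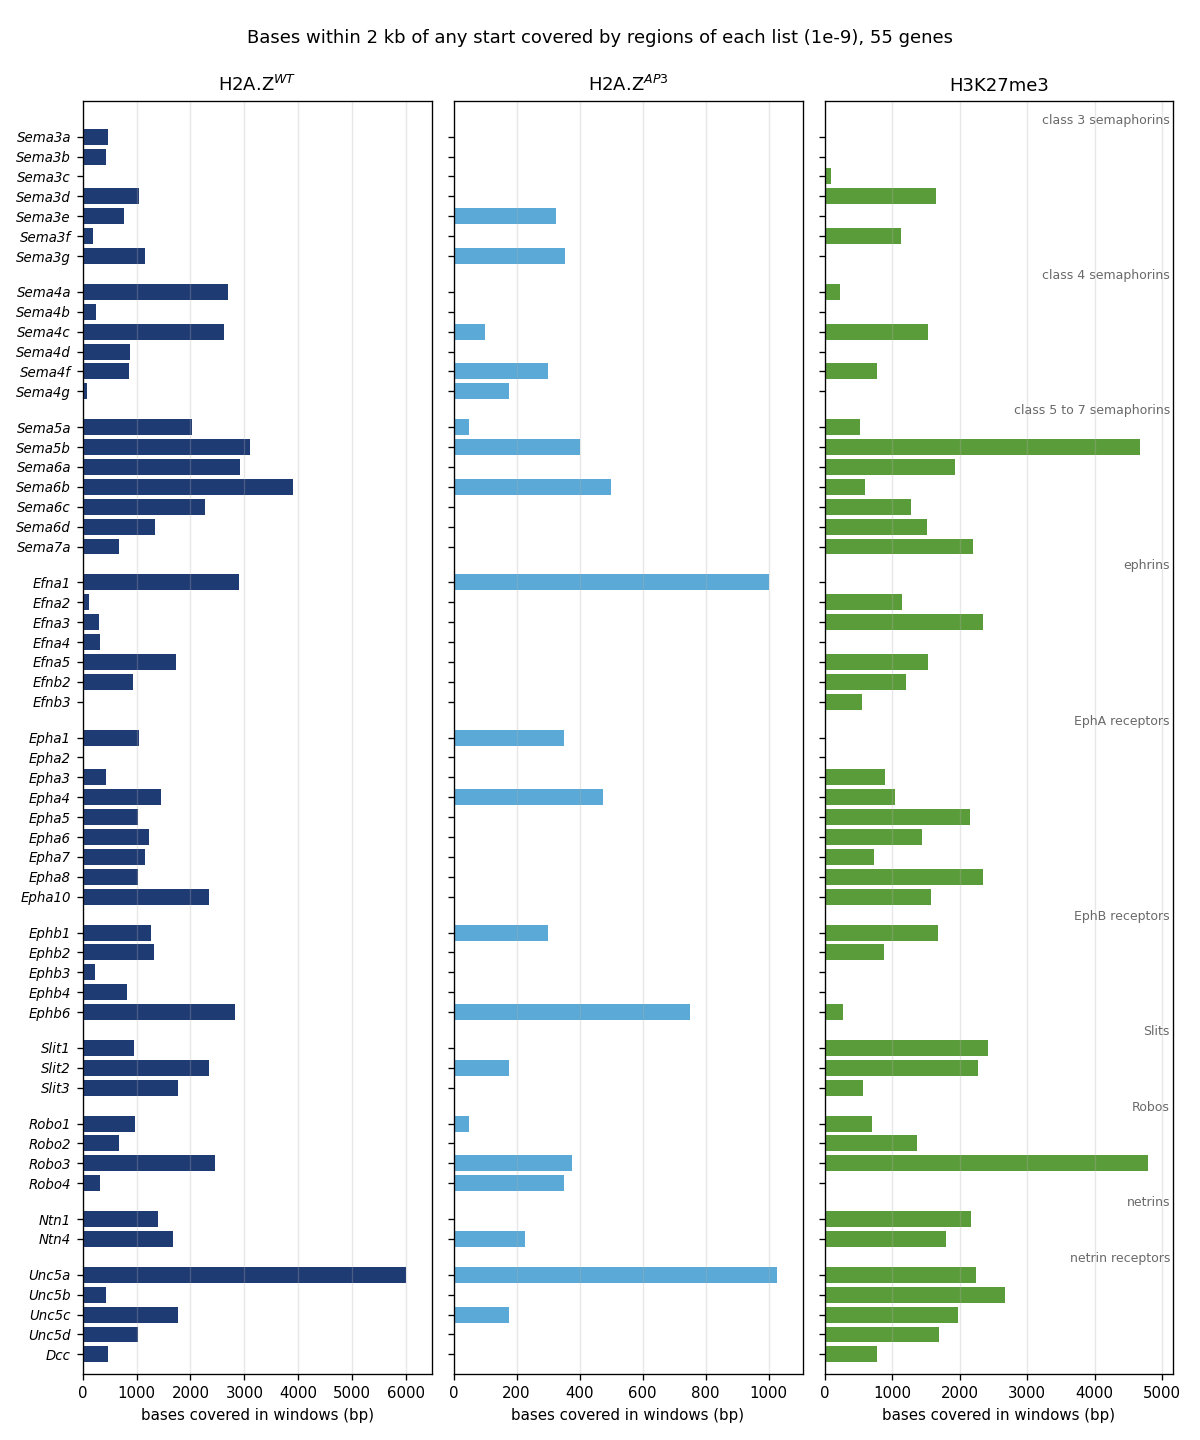
Bases within 2 kb of any start that lie in regions of each list (x axis, bp, scaled separately for each library) for the 55 genes (y axis), grouped by family. Unc5a has the longest H2A.Z-WT and H2A.Z-AP3 coverage (5991 and 1025 bp), and Robo3 and Sema5b have the longest H3K27me3 coverage (4785 and 4677 bp).

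The class 3 semaphorins, secreted ligands that mostly signal through neuropilin and plexin complexes, had the lowest share of genes with H3K27me3 of the families, though not the fewest bases. H2A.Z-WT was called at 6 of 7, H2A.Z-AP3 at 2 and H3K27me3 at 3. Sema3a, the repellent of sensory axons that binds neuropilin-1, had 475 bp of H2A.Z-WT, and Sema3b had 425 bp, with neither of the other marks. Sema3d had 1050 bp of H2A.Z-WT and 1650 bp of H3K27me3, the most H3K27me3 in the class. Sema3f, the ligand of neuropilin-2, had 200 bp of H2A.Z-WT and 1125 bp of H3K27me3. Sema3f and Sema3d thus had H3K27me3 over more bases than H2A.Z-WT.

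The remaining class 3 genes departed from that pattern. Sema3e, which binds plexin D1 without a neuropilin, had 775 bp of H2A.Z-WT and 325 bp of H2A.Z-AP3. Sema3g had 1155 bp of H2A.Z-WT and 355 bp of H2A.Z-AP3, but its window is shared with starts of Nisch, and the regions cannot be assigned to 1 of the genes. Sema3c, which guides migrating neural crest in the heart, had no H2A.Z-WT or H2A.Z-AP3 region and a single H3K27me3 region of 100 bp in an intron (chr5:17081076-17081175). That region was lost at 1e-12. Sema3d, Sema3a, Sema3e and Sema3c follow each other on chromosome 5, so that neighbouring genes of 1 family differed in all 3 calls.

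The membrane-bound class 4 semaphorins all had H2A.Z-WT (6 of 6), with H2A.Z-AP3 at 3 and H3K27me3 at 3. Sema4a, which acts in the immune system and the retina, had 2700 bp of H2A.Z-WT over 2 promoters and 225 bp of H3K27me3. Sema4c, a ligand of plexin B2, had 2625 bp of H2A.Z-WT, 100 bp of H2A.Z-AP3 and 1525 bp of H3K27me3. In Sema4c the H3K27me3 region lay upstream of the first start (chr1:36615501-36617025) and the H2A.Z-AP3 region in an intron, inside an H2A.Z-WT region of 1725 bp. Sema4c was thus called in all 3 libraries without H2A.Z-AP3 and H3K27me3 sharing a base.

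Sema4f had 855 bp of H2A.Z-WT, 300 bp of H2A.Z-AP3 and 775 bp of H3K27me3. Sema4g had 175 bp of H2A.Z-AP3 and 75 bp of H2A.Z-WT, both upstream and 50 bp apart, so that it is 1 of 2 genes (with Robo4) with more bases in H2A.Z-AP3 than in H2A.Z-WT regions. The 75-bp region was lost at 1e-12, whereas the H2A.Z-AP3 region was kept. Sema4b and Sema4d, the latter a ligand of plexin B1, had only H2A.Z-WT, over 250 and 875 bp.

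The class 5 to 7 semaphorins, membrane-anchored proteins, were called in both the H2A.Z-WT and the H3K27me3 library without exception (7 of 7), and 3 of 7 had H2A.Z-AP3. Sema5b had 3100 bp of H2A.Z-WT, 400 bp of H2A.Z-AP3 and 4677 bp of H3K27me3. Its calls were the same at both of its promoters, which begin at 35541231 and 35658181 on chromosome 16. The first carried 1950 bp of H2A.Z-WT, 25 bp of H2A.Z-AP3 and 3727 bp of H3K27me3. The second carried 1150 bp of H2A.Z-WT, 375 bp of H2A.Z-AP3 and 950 bp of H3K27me3. Most of the H2A.Z-AP3 of Sema5b therefore lay at the promoter with less H3K27me3.

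Sema6b had the most H2A.Z-WT in the class, 3901 bp or 48.8% of its window, with 500 bp of H2A.Z-AP3 and 600 bp of H3K27me3. Sema5a had 2025 bp of H2A.Z-WT, 525 bp of H3K27me3 and 50 bp of H2A.Z-AP3, made of 2 regions of 25 bp, the size of a single bin. Sema6a, which binds plexins A2 and A4, had 2925 bp of H2A.Z-WT and 1925 bp of H3K27me3 but no H2A.Z-AP3 region in the 1e-9 list. Long H2A.Z-WT coverage in this class came with and without H2A.Z-AP3. Sema6c, Sema6d and Sema7a, the last anchored by a lipid and able to bind integrins, had 675 to 2277 bp of H2A.Z-WT, 1275 to 2195 bp of H3K27me3 and no H2A.Z-AP3.

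The ephrins are cell-bound ligands, the A type held by a lipid anchor and the B type by a transmembrane segment. H2A.Z-WT and H3K27me3 were each called at 6 of 7 genes and H2A.Z-AP3 at 1. That gene was Efna1, with 2900 bp of H2A.Z-WT (52.7% of its window, the highest share of the 55 genes), 1000 bp of H2A.Z-AP3 and 25 bp of H3K27me3. One H2A.Z-AP3 region of 700 bp lay around a downstream start (chr3:89083076-89083775) and another of 300 bp ran upstream from the first (chr3:89085051-89085350). The H3K27me3 region of Efna1 was a single bin that was lost at 1e-12, and Efna4 had none.

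Efna1, Efna3 and Efna4 lie side by side on chromosome 3, all on the minus strand, and each had a different set of calls. Efna3 had 300 bp of H2A.Z-WT and 2350 bp of H3K27me3. Efna4 had 325 bp of H2A.Z-WT alone. Efna2 and Efna5, which pattern the visual map, had 125 and 1725 bp of H2A.Z-WT and 1150 and 1525 bp of H3K27me3. Efnb2, known as a marker of arteries, had 925 bp of H2A.Z-WT and 1200 bp of H3K27me3 in a window shared with 4921522P10Rik. Efnb3, a midline cue of the spinal cord, had only an H3K27me3 region of 550 bp in an intron (chr11:69372426-69372975), which was still called, over 450 bp, at 1e-12.

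The EphA receptors bind mainly A-type ephrins. H2A.Z-WT was called at 8 of 9, H3K27me3 at 7 and H2A.Z-AP3 at 2. Epha4, a receptor of motor and corticospinal axons, had 1450 bp of H2A.Z-WT, 475 bp of H2A.Z-AP3 and 1050 bp of H3K27me3. Its single H2A.Z-AP3 region (chr1:77512101-77512575) lay upstream of the start, within both an H2A.Z-WT region of 1075 bp and an H3K27me3 region of 550 bp. At Epha4 all of the H2A.Z-AP3 bases were therefore shared with both other lists. Epha1 had 1050 bp of H2A.Z-WT and 350 bp of H2A.Z-AP3 without H3K27me3.

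The other EphA genes had no H2A.Z-AP3. Epha8 had 1025 bp of H2A.Z-WT and the most H3K27me3 of the family, 2350 bp or 58.7% of its window. Epha10, whose kinase domain is held to be inactive, had the most H2A.Z-WT, 2350 bp, with 1576 bp of H3K27me3. Epha3, Epha5, Epha6 and Epha7 had 425 to 1225 bp of H2A.Z-WT and 725 to 2150 bp of H3K27me3. Epha2 had no region at any of its 3 promoters in the 1e-9 or the 1e-12 lists, although its first promoter had 60 CpGs within 500 bp of the start, equal to the median of the 55 genes.

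The EphB receptors, which bind mainly B-type ephrins, all had H2A.Z-WT (5 of 5), with H3K27me3 at 3 and H2A.Z-AP3 at 2. Ephb6, a receptor without kinase activity, had 2825 bp of H2A.Z-WT, 750 bp of H2A.Z-AP3 in 3 regions and 275 bp of H3K27me3. Its H2A.Z-AP3 regions all lay within the H2A.Z-WT region of 2000 bp across the first start (chr6:41554476-41556475). The H3K27me3 region lay farther into the first intron and overlapped no H2A.Z-WT region. Ephb1, which turns retinal axons at the optic chiasm, had 1275 bp of H2A.Z-WT, 300 bp of H2A.Z-AP3 and 1678 bp of H3K27me3.

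The H3K27me3 region of Ephb1 was the longest found at any of the genes, 3050 bp (chr9:102253651-102256700), and reached beyond the window. Ephb2 had 1325 bp of H2A.Z-WT and 875 bp of H3K27me3. Ephb3 and Ephb4, the latter a venous receptor for ephrin B2, had 225 and 825 bp of H2A.Z-WT and nothing else. The pair Efnb2 and Ephb4, ligand and receptor, thus differed in H3K27me3 and were alike in lacking H2A.Z-AP3. Ephb6 and Epha1 lie near each other on chromosome 6, where H2A.Z-AP3 calls were more frequent in general, and the third gene on that chromosome, Sema4f, was called as well. On chromosome 8 neither Efnb2 nor Unc5d was called, and away from chromosomes 6 and 8 H2A.Z-AP3 was called at 17 of 50 genes (34.0%) against 20.5%.

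The Slits are secreted repellents that act through receptors of the Robo family. H2A.Z-WT and H3K27me3 were called at all 3 Slits and H2A.Z-AP3 at Slit2, which had 2350 bp of H2A.Z-WT, 175 bp of H2A.Z-AP3 and 2275 bp of H3K27me3. Slit1 had 950 bp of H2A.Z-WT and 2425 bp of H3K27me3, the most of the Slits. Slit3 had 1775 bp of H2A.Z-WT over 3 promoters and 575 bp of H3K27me3 at the first of them. Of the Robos, all 4 had H2A.Z-WT, 3 had H3K27me3 and 3 had H2A.Z-AP3.

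Robo3, which allows commissural axons to cross the midline, had 2460 bp of H2A.Z-WT, 375 bp of H2A.Z-AP3 and 4785 bp of H3K27me3, the most H3K27me3 of the 55 genes. Its H2A.Z-AP3 region (chr9:37237176-37237550) overlapped a coding exon within an H3K27me3 region of 900 bp. Robo4, the endothelial member, lies next to Robo3 and had 325 bp of H2A.Z-WT and 350 bp of H2A.Z-AP3 around its start without H3K27me3. The neighbours differed in H3K27me3, and they differed in CpGs too, with 47 at Robo3 and 11 at Robo4, the lowest count of the 55 genes. Robo1 had 975 bp of H2A.Z-WT, 700 bp of H3K27me3 and a 50-bp H2A.Z-AP3 region outside the H2A.Z-WT region. Robo2 had 675 bp of H2A.Z-WT and 1375 bp of H3K27me3.

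The 2 netrins and 5 netrin receptors on the list all had both H2A.Z-WT and H3K27me3. Ntn1, the attractant of the floor plate, had 1398 bp of H2A.Z-WT and 2174 bp of H3K27me3. Ntn4 had 1675 bp of H2A.Z-WT, 225 bp of H2A.Z-AP3 and 1794 bp of H3K27me3. Among the receptors H2A.Z-AP3 was called at Unc5a and Unc5c, both dependence receptors that mediate repulsion. Unc5c had 1775 bp of H2A.Z-WT, 175 bp of H2A.Z-AP3 and 1975 bp of H3K27me3.

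Unc5b, which also acts in endothelium, had 425 bp of H2A.Z-WT and 2672 bp of H3K27me3, 66.8% of its window and the highest share of the 55 genes. Unc5d had 1025 bp of H2A.Z-WT and 1691 bp of H3K27me3. Dcc, the attractive netrin receptor, had 475 bp of H2A.Z-WT and 775 bp of H3K27me3. H3K27me3 covered more of the window than H2A.Z-WT at each of these 3 genes, none of which had H2A.Z-AP3 in its windows. The same held at Ntn1, without H2A.Z-AP3, and at Ntn4 and Unc5c, which had it, but not at Unc5a.

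Unc5a had more bases in H2A.Z-WT (5991 bp) and H2A.Z-AP3 (1025 bp) regions than any other of the genes, and its promoters differed in kind. The first promoter, with its start at chr13:55050772, had 1175 bp of H2A.Z-WT, 2247 bp of H3K27me3 and no H2A.Z-AP3. The second, with its start at chr13:55097900, had 2350 bp of H2A.Z-WT, 1025 bp of H2A.Z-AP3 and no H3K27me3. The third, from chr13:55104371, had 2466 bp of H2A.Z-WT alone. Counted over the whole gene, Unc5a was called in all 3 libraries, but no promoter of it was. The H2A.Z-AP3 region (chr13:55098401-55099425) is a single intronic region of 1025 bp, the longest of that library at the 55 genes, and lies within an H2A.Z-WT region of 2350 bp.

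**Figure D3:**
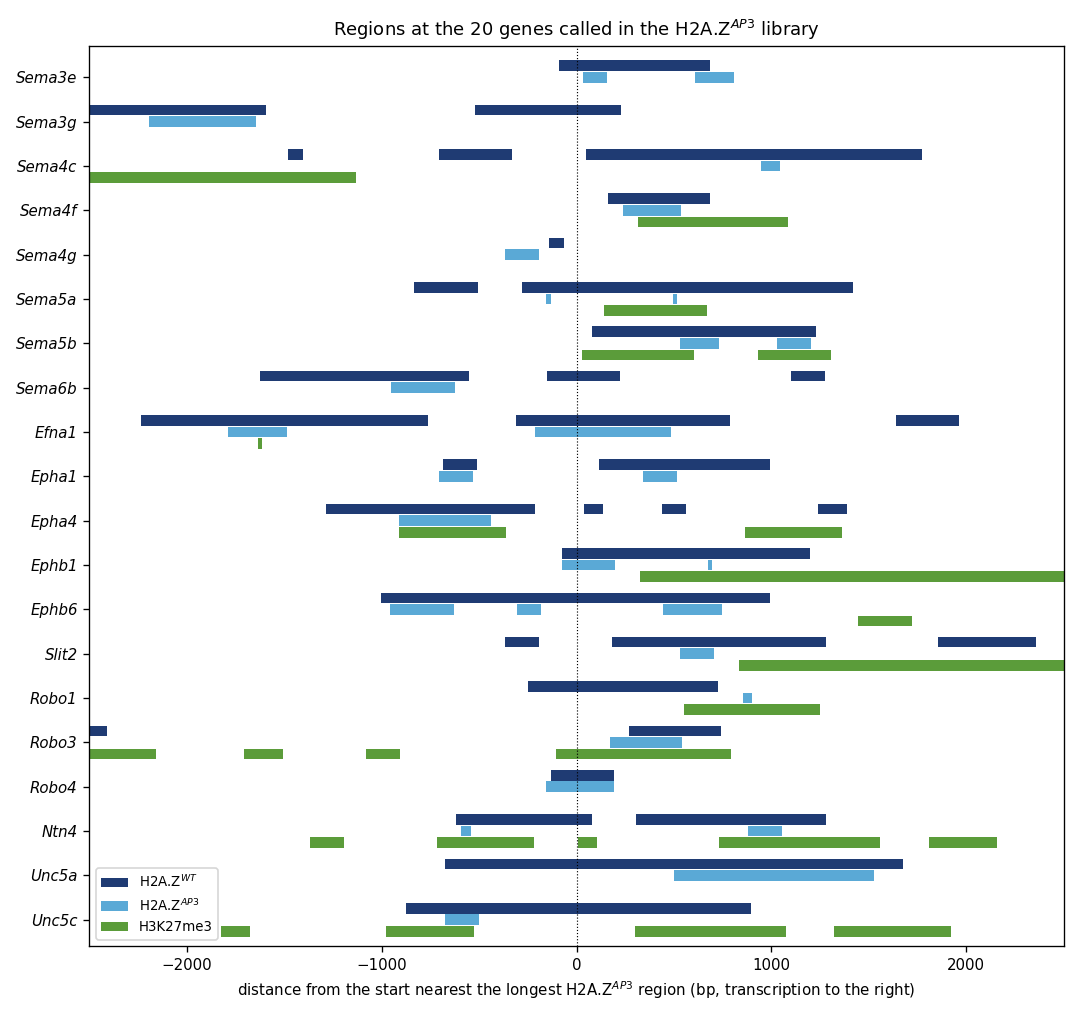
Regions of the 3 lists at the 20 genes called in the H2A.Z-AP3 library, by distance in bp from the start nearest the longest H2A.Z-AP3 region, with transcription to the right and each gene on its own row. The H2A.Z-AP3 bars overlap H2A.Z-WT bars except at Sema4g and Robo1, and H3K27me3 bars share bases with them at 10 of the 15 genes that have both. Regions beyond 2500 bp are not drawn.

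Promoters of the same gene were counted separately where their windows did not touch, which gave 112 promoters, with more than 1 at 28 genes. Calls differed between the promoters of 25 of these 28 genes. At the 55 first promoters H2A.Z-WT was called 50 times (90.9%), H2A.Z-AP3 19 times (34.5%) and H3K27me3 42 times (76.4%). At the 57 later ones the numbers were 18 (31.6%), 3 (5.26%) and 5 (8.77%). Over all genes, the same libraries were called at 59.6%, 21.2% and 17.1% of first promoters and at 23.1%, 5.57% and 4.31% of later ones, so that calls were more frequent at first promoters there too. Of the later promoters, 22 had a protein-coding transcript, and 4 of these (18.2%) had H3K27me3, against 7.00% over all genes. All 23 genes with several promoters and H3K27me3 had it at the first, and 3 of them had it at every promoter.

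The genes with later promoters called showed several arrangements. Slit2 had 11 promoters, with regions at the first alone. Sema4b had its only H2A.Z-WT region at the second. Ntn1 had H3K27me3 without H2A.Z-WT at its first promoter (751 bp), and both at its second (1423 and 1398 bp). Sema6b had all 3 calls at its first promoter and H2A.Z-WT with H2A.Z-AP3 at its second. The second promoters of Robo3 and Epha10 and the third of Sema6d repeated H2A.Z-WT and H3K27me3, and at least 1 later promoter of Sema3a, Sema4a, Sema4f, Epha10, Ephb3, Ephb6, Slit3 and Unc5a had H2A.Z-WT without either other mark. Of the 39 later promoters with no region, 10 belonged to Slit2.

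Within single promoters, 15 of the 112 had all 3 calls, 29 had H2A.Z-WT and H3K27me3, 7 had H2A.Z-WT and H2A.Z-AP3, 17 had H2A.Z-WT alone, 3 had H3K27me3 alone and 41 had none. Bases were compared in the same way. At the 40 genes with H2A.Z-WT and H3K27me3, 36.1% of the H2A.Z-WT bases and 37.8% of the H3K27me3 bases were shared, against 39.2% and 36.9% over all such genes. At the 20 genes with H2A.Z-AP3, 93.3% of its bases lay in H2A.Z-WT regions, against 82.4%. At the 15 genes with all 3 calls, 30.9% of the H2A.Z-AP3 bases lay in H3K27me3 regions, against 42.7%, and 5 of the 15 shared none.

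The positions relative to the most upstream start differed between libraries. H2A.Z-WT covered 23 of 55 genes (41.8%) just before the start and 33 (60.0%) in the bin centred at 212.5 bp downstream, where it was most frequent. H3K27me3 was low at the start, with 7 genes (12.7%), and reached its maximum of 26 genes (47.3%) at 1012.5 bp downstream. The trough of H3K27me3 thus lay about where H2A.Z-WT was frequent. Within 1 kb, H2A.Z-WT bases downstream outnumbered those upstream 1.92 times and H3K27me3 bases 1.52 times, against 1.84 and 1.33 over all genes. For H2A.Z-AP3 the ratio was 1.06 against 1.30, but at most 4 genes were covered in any bin, so its shape could not be resolved.

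**Figure D4:**
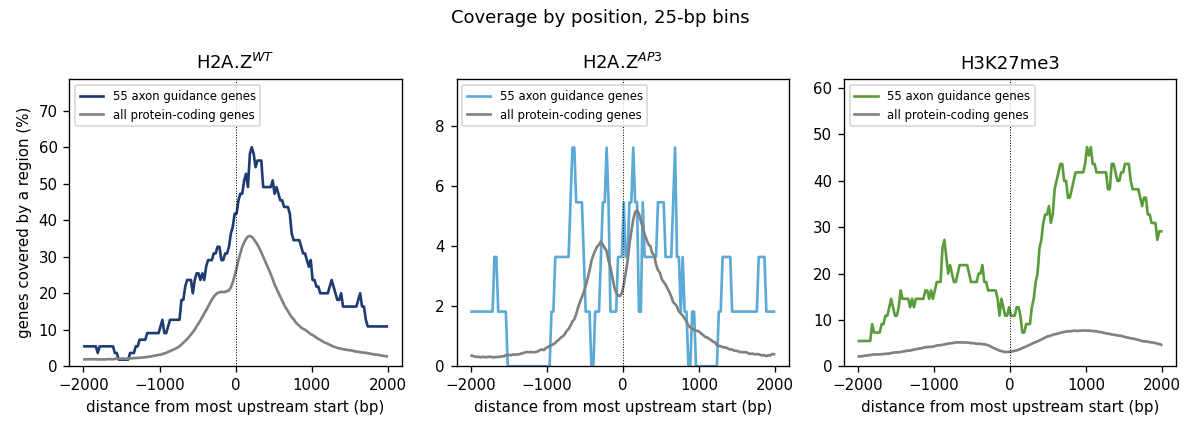
Percent of genes covered by a region (y axis, own scale for each library) in bins of 25 bp by distance from the most upstream start (x axis, bp), for the 55 axon guidance genes (colour) and all protein-coding genes (grey). H2A.Z-WT peaks at 60.0% just downstream of the start and H3K27me3 at 47.3% farther downstream, whereas H2A.Z-AP3 never exceeds 7.27%.

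The windows held 127 H2A.Z-WT regions with a median length of 425 bp, against 250 bp in the whole list, and 109 H3K27me3 regions with a median of 500 bp against 250 bp. The 31 H2A.Z-AP3 regions had a median of 175 bp, equal to that of the whole list. Of the H2A.Z-AP3 regions, 29 shared bases with H2A.Z-WT regions and 12 with H3K27me3 regions. By midpoint, 10 of them lay upstream of a gene, 6 in a 5′ UTR, 5 in a coding exon and 10 in an intron. H3K27me3 regions lay mostly in introns (63) and upstream (34), and H2A.Z-WT regions in introns (55), upstream (30), in 5′ UTRs (20) and in coding exons (16).

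H3K27me3 regions within 1 kb of each other were joined into domains. Over the 42 genes the longest domain touching a window had a median of 2112.5 bp, against 1550 bp over all genes called. The longest was taken over all windows of a gene, and the 55 genes had longer windows (median 8002 bp against 4053 bp). Domains reached 5 kb at 4 genes (9.52%, against 12.4%), namely Sema5b with 7175 bp, Robo3 with 6550 bp, Ephb1 with 5100 bp and Unc5c with 5050 bp. H2A.Z-AP3 was called within the windows of all 4, where 45.7% of all genes with H2A.Z-WT and H3K27me3, at any domain length, were called. The share among all genes with domains of 5 kb is not given here. Inside the domains H2A.Z-AP3 covered 25 bp each at Sema5b and Ephb1, 175 bp at Unc5c and 375 bp at Robo3. The next in length had none, namely Sema7a and Efna3 (4675 bp each), Unc5b (4450 bp) and Epha10 (4150 bp). Ntn4 with 3925 bp had H2A.Z-AP3, and the genes ranked after it, from Unc5d (3775 bp) to Epha5 (2875 bp), had none. Among genes with shorter domains, some again had H2A.Z-AP3 in their windows, such as Slit2 (2600 bp), Unc5a (2175 bp), Epha4 (1575 bp) and Efna1 (25 bp). Others, such as Epha6 (2575 bp), did not.

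**Figure D5:**
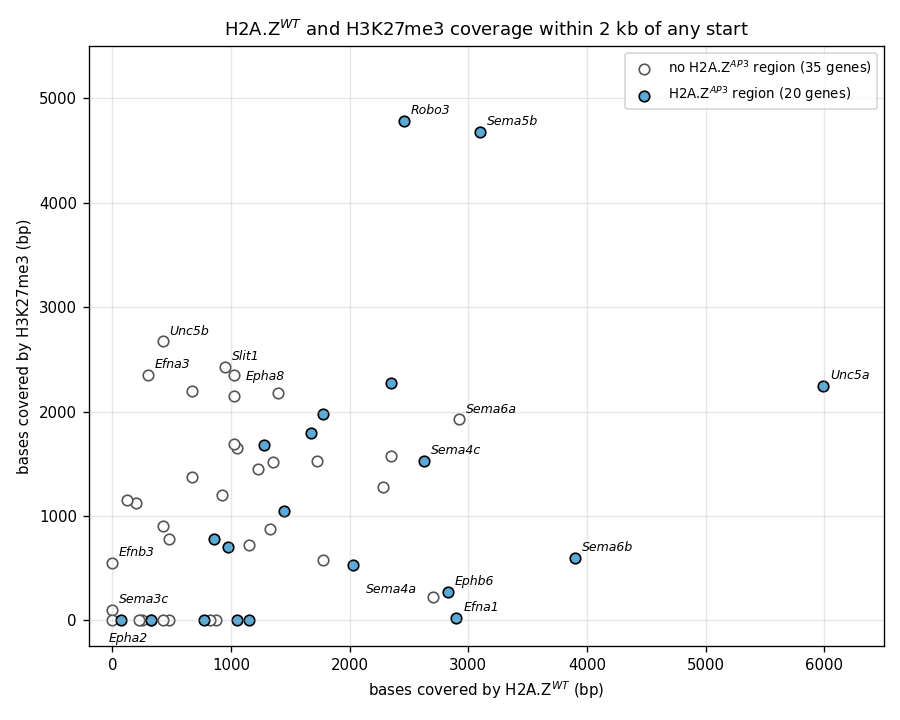
Bases covered by H2A.Z-WT (x axis, bp) and H3K27me3 (y axis, bp) within 2 kb of any start, 1 point for each of the 55 genes, filled where H2A.Z-AP3 was called (20 genes). Unc5a lies farthest right, Robo3 and Sema5b highest, and Unc5b and Efna3 have 2672 and 2350 bp of H3K27me3 beside 425 and 300 bp of H2A.Z-WT and no H2A.Z-AP3.

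Beyond 2 kb from every start, regions covered little of the gene bodies, with 227 H2A.Z-WT, 57 H3K27me3 and 25 H2A.Z-AP3 regions. H2A.Z-WT covered 0.780% of the 9.79 Mb of bodies, H3K27me3 0.171% and H2A.Z-AP3 0.0516%, against 0.955%, 0.223% and 0.0938% over all genes. Per 100 kb there were 2.319, 0.582 and 0.255 regions in the same order, against 2.815, 0.483 and 0.398. H3K27me3 regions in the bodies were thus more frequent than over all genes, but covered a smaller share. Slit1 had 31 H2A.Z-WT regions over 11254 bp (8.20% of its body) and 6 H2A.Z-AP3 regions over 954 bp, although its promoters had no H2A.Z-AP3. Epha10 had 1200 bp of H2A.Z-AP3 and 3049 bp of H3K27me3 in its body. Sema3g had H2A.Z-WT over 51.0% of its body and Epha8 over 26.7%. Slit1 and Epha10 were thus examples of genes with H2A.Z-AP3 away from their starts and not near them.

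Other genes of the pathway were counted in the same windows. Of 11 plexins and neuropilins, the receptors of semaphorins, 10 had H2A.Z-WT, 7 had H2A.Z-AP3 and 7 had H3K27me3. Plxnd1, the receptor of Sema3e, had 6401, 1400 and 2178 bp, and Nrp2, that of Sema3f, had 950, 300 and 3051 bp, each in the order H2A.Z-WT, H2A.Z-AP3, H3K27me3. Of 11 further partners of netrins and of repulsive guidance molecules, 10 had H2A.Z-WT, 8 had H3K27me3 and 1, Rgma, had H2A.Z-AP3, over 75 bp. Over all genes H2A.Z-WT was called at 61.7%, H3K27me3 at 18.2% and H2A.Z-AP3 at 23.2%. Of the plexins and neuropilins with H2A.Z-AP3, 4 (Plxna1, Plxna4, Plxnd1 and Nrp1) lie on chromosomes 6 and 8, and 3 of the 7 elsewhere were called, whereas no netrin partner lies on those chromosomes.

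Among 21 intracellular effectors, 19 had H2A.Z-WT (background 61.7%), 7 had H2A.Z-AP3 (23.2%) and 7 (33.3%, 17.2 to 54.6) had H3K27me3 (18.2%). Of the collapsin response mediators, Dpysl3, Dpysl4, Dpysl5 and Crmp1 had H3K27me3 and Dpysl2 did not. Their H3K27me3 share was lower than the 76.4% (63.7 to 85.6) of the 55 cell-surface and secreted genes, with intervals that did not overlap. The interval of the effectors included the background. The effectors also had a longer median window (12043 against 8002 bp) and more CpG-rich promoters (80.95% against 70.9%), and the difference was not tested.

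Ligands and receptors among the 55 genes had similar shares in each library. H3K27me3 was called at 24 of 32 ligands (75.0%) and 18 of 23 receptors (78.3%), H2A.Z-AP3 at 11 (34.4%) and 9 (39.1%), and H2A.Z-WT at 30 (93.8%) and 22 (95.7%).

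At the stricter threshold of 1e-12, H2A.Z-WT was kept at 51 of 52 genes (98.1%, against 94.5% over all genes) and H3K27me3 at 40 of 42 (95.2%, against 85.5%). H2A.Z-AP3 was kept at 16 of 20 (80.0%, against 68.2%). The genes that lost it were Sema4c, Sema5a, Slit2 and Robo1, which had 50 to 175 bp at 1e-9. H2A.Z-AP3 calls at these genes thus rested on the 1e-9 list alone, whereas those at Unc5a, Efna1, Ephb6 and Epha4 kept 300 to 700 bp.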

How the data were processed

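ChIP-Seq was performed on mouse ESCs for H3K27me3 and for YFP-tagged H2A.Z-WT or H2A.Z-AP3, with 1 library each. The submitters' processing notes name Bowtie 0.12.3, bedtools and the build mm9. Per the methods, the authors extended mapped reads, counted them in bins of 25 bp and kept bins enriched over a Poisson background and over input. The deposited lists hold starts and ends of enriched regions at 1e-9 (used here) and 1e-12, called in each library separately. Groups were taken from genotype and antibody labels.

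Windows of 2 kb each side of all transcript starts of protein-coding genes (GENCODE vM1) were merged by gene and overlapped with regions by at least 1 bp. Efna5 occurs under 2 identifiers, of which the longer gene was used. Draxin was not analysed here. Because each group is 1 library of unknown depth, counts were described with Wilson and Newcombe intervals, without tests. Genes and lists were chosen with earlier results of these data known. Bases are named for genes called in the H2A.Z-AP3 library, for extremes of each family, for genes lacking H2A.Z-WT and for genes whose promoters differ; other values were added for completeness of families. Alternatives covered the threshold, window, start set, region length, chromosomes, shared windows and CpG content. Overlap counting was tested on simulated data. Python 3.11.15, NumPy 2.4.6, SciPy 1.17.1 and Matplotlib 3.10.9 were used.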

Additional observations from a re-analysis of the deposited data

Results flagged for a closer look

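A stricter threshold would give nested lists, but the 1e-12 lists held regions that shared no base with the 1e-9 list of the same library, and these were not used in the counts above. In the windows of the axon guidance genes there were 6 such H2A.Z-WT regions among 119 (5.04%, against 8.05% of the whole list), at Sema3b, Sema4a, Sema4d, Sema4f, Efna4 and Ephb3. There were 5 such H2A.Z-AP3 regions among 26 (19.2%, against 23.4%), of which 2 were at Sema4a and 1 each at Sema6a, Sema6b and Epha8. Sema4a, Sema6a and Epha8 had no H2A.Z-AP3 region at 1e-9 and would be added by these regions. Why the lists are not nested was not tested.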

How the results depend on the processing

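Apart from the CpG-rich set, the counts of genes called were 47 to 52 for H2A.Z-WT, 17 to 23 for H2A.Z-AP3 and 38 to 44 for H3K27me3. All of these lay within 1.5 times the reported counts. The lowest counts came from the run without chromosomes 6 and 8, which held 50 genes. Among the 39 CpG-rich genes the counts were 37, 15 and 31. The difference in H2A.Z-AP3 calls between genes with and without H3K27me3, -4.17 percentage points, changed sign to 3.33 with the union of both thresholds, 2.86 with windows of 5 kb and 2.10 without genes that share a window, and in the last case 2 fewer genes were counted. The share of H2A.Z-AP3 in H2A.Z-WT bases, 10.3%, moved to 8.47% at 1e-12, 11.5% with starts of protein-coding transcripts alone and 9.21% without chromosomes 6 and 8. The median share of the window in H2A.Z-WT, 13.7%, became 21.6% with windows of 1 kb, 8.81% with 5 kb and 23.7% with the most upstream start, and that in H3K27me3, 17.5%, became 8.35% with 5 kb and 29.2% with the most upstream start, as the window itself changed. The excess of H2A.Z-WT over its background, 32.9 points, became 13.3 points at CpG-rich genes. That of H2A.Z-AP3, 13.2 points, became 6.3 points, with an interval that included the background. Other causes were not tested. No paired analysis was possible because each group holds 1 library. Depth is unknown, so a gene without a region may lie below the threshold of that library.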
